A study of Mus musculus with 9 samples.

Results

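Mouse T cells kept for 24 h with allogeneic dendritic cells were compared with T cells kept for the same time with syngeneic dendritic cells, by the RNA that came down with Argonaute (AGO). The T cells were from C57BL/6 mice in both groups. Syngeneic dendritic cells came from C57BL/6 mice too, and allogeneic ones from BALB/c mice, whose transplantation antigens are foreign to the T cells. Each culture held 20 T cells per dendritic cell. Cells labelled with CD11c beads and other non-T cells were then removed by magnetic negative selection, the T cells were crosslinked with ultraviolet light (a first dose of 400 mJ/cm2), and AGO was immunoprecipitated. After amplification, the RNA of each sample was read on 1 expression array. The comparison takes 6 of the 9 arrays of the series: the 3 of allogeneic and the 3 of syngeneic culture, chosen by their titles. Another 3 arrays, of T cells given anti-CD3e plus anti-CD28 (0.1 µg/ml, 24 h), entered the choice of probe set and the estimate of spread, and their values are shown beside some results. Arrays were paired by the replicate number in their titles (numbers 1, 2 and 3), and 18193 genes were described, each by its brightest probe set. The labels call the replicates biological but name no animals or cultures, so p-values measure the spread between these arrays, which may be technical.

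T cells recognise foreign major histocompatibility complex (MHC) molecules directly at high frequency, which is the basis of graft rejection and of graft-versus-host disease. An activated T cell makes interleukin-2 and its receptor, takes up nutrients, builds ribosomes and enters the cell cycle, while genes of the resting state are switched off. AGO proteins hold microRNAs, short RNAs that pair through their seed with messenger RNAs and, with GW182 proteins, lead to their decay or lower their translation. The signal of a gene on these arrays therefore depends both on how much of its RNA a cell holds and on how much of it AGO binds. Arrays of unselected input RNA were not analysed here, so abundance and binding are not separated. All values are log2 signals, on which a difference of 1 is a 2-fold difference in signal, and every difference is allogeneic minus syngeneic within a replicate number.

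The arrays of allogeneic replicate 1 and anti-CD3/CD28 replicate 1 were close to identical, with an SD of 0.10 across genes for their difference, against 0.49 and 0.68 for the same difference in numbers 2 and 3. The allogeneic and syngeneic arrays of number 1 differed with an SD of 0.42, those of number 2 with 0.53 and those of number 3 with 0.47. Results are therefore given within each number, and counts also for numbers 2 and 3 alone. Exactly equal values in both cultures were listed for 32.1% of genes in number 1, 17.9% in number 2 and 26.5% in number 3, and for 421 genes in all 3 numbers, so a difference of 0.00 below can be such an equality rather than a measured lack of difference. Between arrays of different numbers 0% of probe sets had equal values, and the array medians went by number. Whether the authors normalized each number on its own is not stated, so levels of different numbers may not share a scale, and whether groups overlap across numbers is a description only. The gap between the 3′ and 5′ control probe sets of Gapdh, a sign of how complete the amplified RNA is, was 4.64, 3.04 and 1.66 on the syngeneic and 3.91, 3.00 and 0.98 on the allogeneic arrays. It was smaller on the allogeneic array of every number, and its part in the results was not tested. The mean of the BioB control probe sets was 4.44, 4.51 and 10.34 on the syngeneic and 4.37, 4.94 and 9.92 on the allogeneic arrays. Number 3 thus stood apart from numbers 1 and 2 in this control, and what part that had in results resting on number 3 was not tested. The 19 measured T cell identity genes had a mean signal of 9.25 to 10.3 on the syngeneic and 9.32 to 10.4 on the allogeneic arrays. Cd3e, a chain of the T cell receptor complex, stood at 11.01, 10.31 and 11.36 in syngeneic and 11.09, 10.41 and 11.26 in allogeneic culture in numbers 1, 2 and 3. Genes of other cell types were bright on the same arrays. Ccl22, of the dendritic cell list and named here after its values were seen, stood at 11.45, 11.61 and 12.16 in syngeneic and 11.64, 10.88 and 12.13 in allogeneic culture. The B cell gene Ighm, given below, was brighter than Cd3e on each of these arrays. T cell RNA was thus present on every array, and how pure the T cells were was not measured.

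Across all genes, limma with the replicate number as a block called 0 of 18193 at an adjusted p under 0.05, and the smallest adjusted p was 0.709. Unadjusted, p was under 0.05 for 423 genes on the higher side (2.33%) and 402 on the lower side (2.21%), shares close to those that a test with no true difference would give. Without the block, limma called 0 genes as well, and 6 and 21 had an unadjusted p under 0.05. A limma fit with number as a random instead of a fixed block, added once the values were known, called 1 gene, Csf1r (adjusted p = 0.0144). None of the differences below passed the test unless this is said, and the adjusted p of the block fit was 0.709 or more for every gene named. By direction, 1326 genes were higher in allogeneic culture within every number (7.29%) and 1448 were lower (7.96%). Every count of list genes below that were higher or lower in every number stands against these 2 shares. Of these 2 counts together, 47.8% were higher, and 63.2% after quantile normalization, where 3483 genes were higher and 2025 lower. With at least 0.25 in each number, 266 genes were higher (1.46%) and 421 lower (2.31%). All 3 allogeneic values lay above all 3 syngeneic values in 35 genes (0.192%) and below them in 82 (0.451%), and after quantile normalization in 234 and 205. With 3 pairs an exact two-sided sign-flip test cannot give a p below 0.25, so these counts are descriptions.

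The differences of the 3 numbers resembled each other weakly. Across genes, which are not independent replicates, Pearson's r between the differences was 0.07 for numbers 1 and 2, 0.25 for numbers 1 and 3 and 0.13 for numbers 2 and 3. Differences of at least 1 were listed for 416 higher and 430 lower genes in number 1, 194 higher and 974 lower in number 2, and 596 higher and 319 lower in number 3. Number 2 thus held mostly lower and number 3 mostly higher genes among those with the bigger differences. In numbers 2 and 3 alone, 3395 genes were higher in both (18.7%) and 2825 lower in both (15.5%). The plot of differences in pairs of numbers sets the mitosis genes and the macrophage and monocyte genes against all others.

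**Figure D1:**
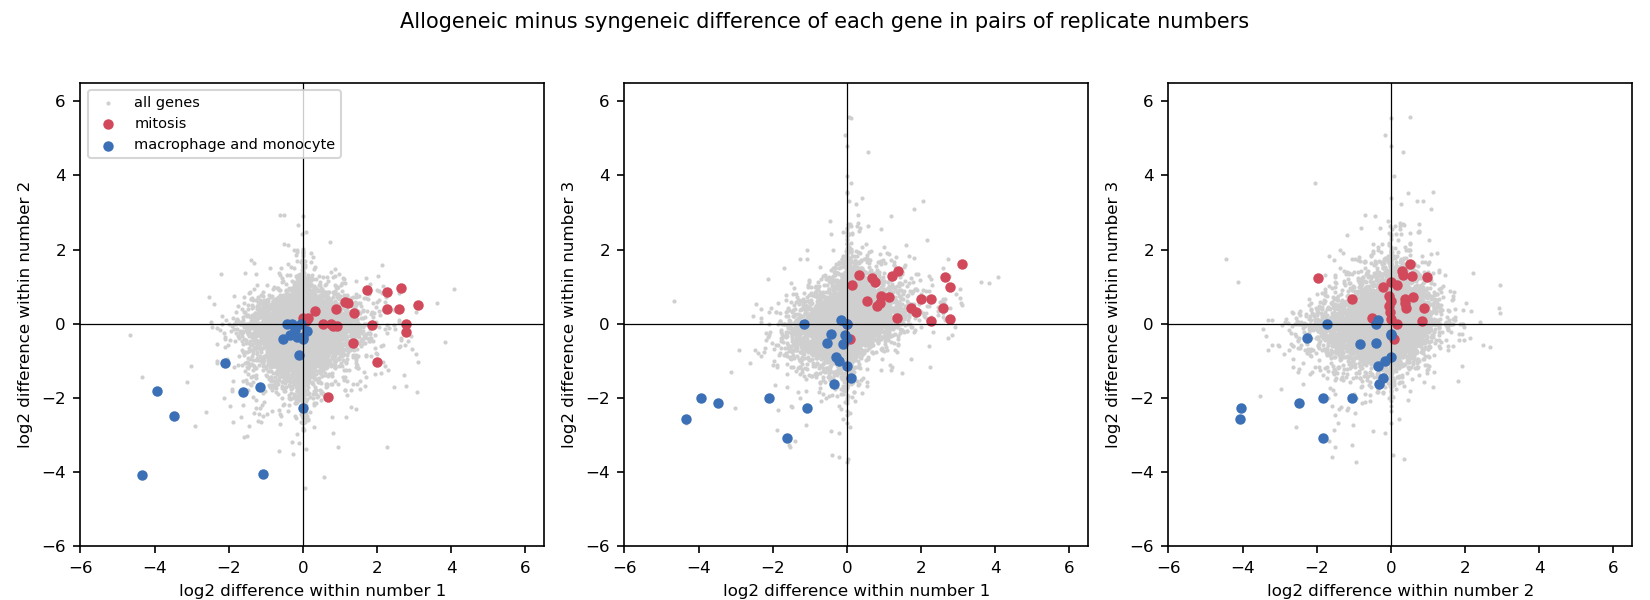
Log2 difference (allogeneic minus syngeneic) of each of 18193 genes in one replicate number (x axis) against another (y axis), with 24 mitosis genes in red, 19 macrophage and monocyte genes in blue and all genes in grey. No macrophage or monocyte gene was higher in both numbers 2 and 3, and no mitosis gene was lower in both.

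Predicted genes, Riken clones and genes without a common name were left out of the naming, whatever their differences. The 10 genes of each direction were taken only among those with 1 sign and at least 0.25 in every number. Being higher, or lower, in every number was thus a condition for them and not a finding. Among the other genes, the 10 with the largest higher values within all 3 numbers were led by products of activated and dividing T cells. Gzmb encodes granzyme B, the protease that killer cells inject into their targets. Its signal was 6.78, 9.15 and 9.98 on the syngeneic arrays of numbers 1, 2 and 3 and 10.86, 10.09 and 11.23 on the allogeneic ones. All allogeneic arrays stood above all syngeneic ones, though the lowest allogeneic and the highest syngeneic value were close. The mean difference of the 3 pairs was 2.09 ± 0.70 (SE of the limma fit), a 4.25-fold difference in signal, and 1.09 over numbers 2 and 3. Here and below, ± gives the SE of the limma fit to all 9 arrays. That SE draws on the antibody arrays and on the spread of other genes too, so it is not the spread of the 3 pairs alone. Il2 encodes interleukin-2, the growth factor of T cells. It stood at 5.97, 8.60 and 8.22 in syngeneic and 8.01, 9.47 and 11.54 in allogeneic culture, higher in each number, with groups that overlap. The mean difference was 2.08 ± 0.69, and 2.09 over numbers 2 and 3. Il9, the interleukin-9 gene, had a mean difference of 1.84 ± 0.89 that came mostly from number 3, with 0.57, 0.32 and 4.63 in the 3 numbers.

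Another 4 of these 10 genes serve the cell cycle. Tk1, the thymidine kinase that recycles thymidine for DNA synthesis, stood at 4.43, 5.57 and 6.76 in syngeneic and 6.60, 6.59 and 9.02 in allogeneic culture. It was higher by more than 1 within every number, and its mean difference was 1.82 ± 0.40. Cdk1, the kinase that drives entry into mitosis, stood at 5.18, 6.41 and 7.37 in syngeneic and 8.29, 6.91 and 8.97 in allogeneic culture. The ubiquitin-conjugating enzyme of the anaphase-promoting complex, Ube2c, stood at 5.78, 7.73 and 9.54 against 8.43, 8.70 and 10.80. Gins2, a subunit of the replicative helicase, had a mean difference of 1.43 ± 0.71, with 3.04, 0.31 and 0.95 in the 3 numbers. All 4 had their smallest difference in number 2.

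The remaining 3 were Bcat1, Trmt10a and Mir1949. Bcat1, a cytosolic enzyme of branched-chain amino acid breakdown, stood at 4.58, 7.30 and 7.94 in syngeneic and 8.19, 7.87 and 9.07 in allogeneic culture. Its mean difference was 1.77 ± 0.63, and all 3 of its probe sets shared the sign. Trmt10a, a transfer RNA methyltransferase, had a mean difference of 2.00 ± 0.43 on its brightest probe set, with 1.81, 1.08 and 3.09 in the 3 numbers. Its 2 other probe sets had smaller mean differences, 0.36 and 0.29. Mir1949 is the symbol the platform annotation gives to a probe set that stood at 4.46, 5.18 and 5.87 in syngeneic and 5.19, 7.38 and 7.23 in allogeneic culture. A messenger RNA array measures no mature microRNA, so this value concerns a transcript at that locus. Its differences in the 3 numbers were 0.73, 2.20 and 1.36.

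**Figure D2:**
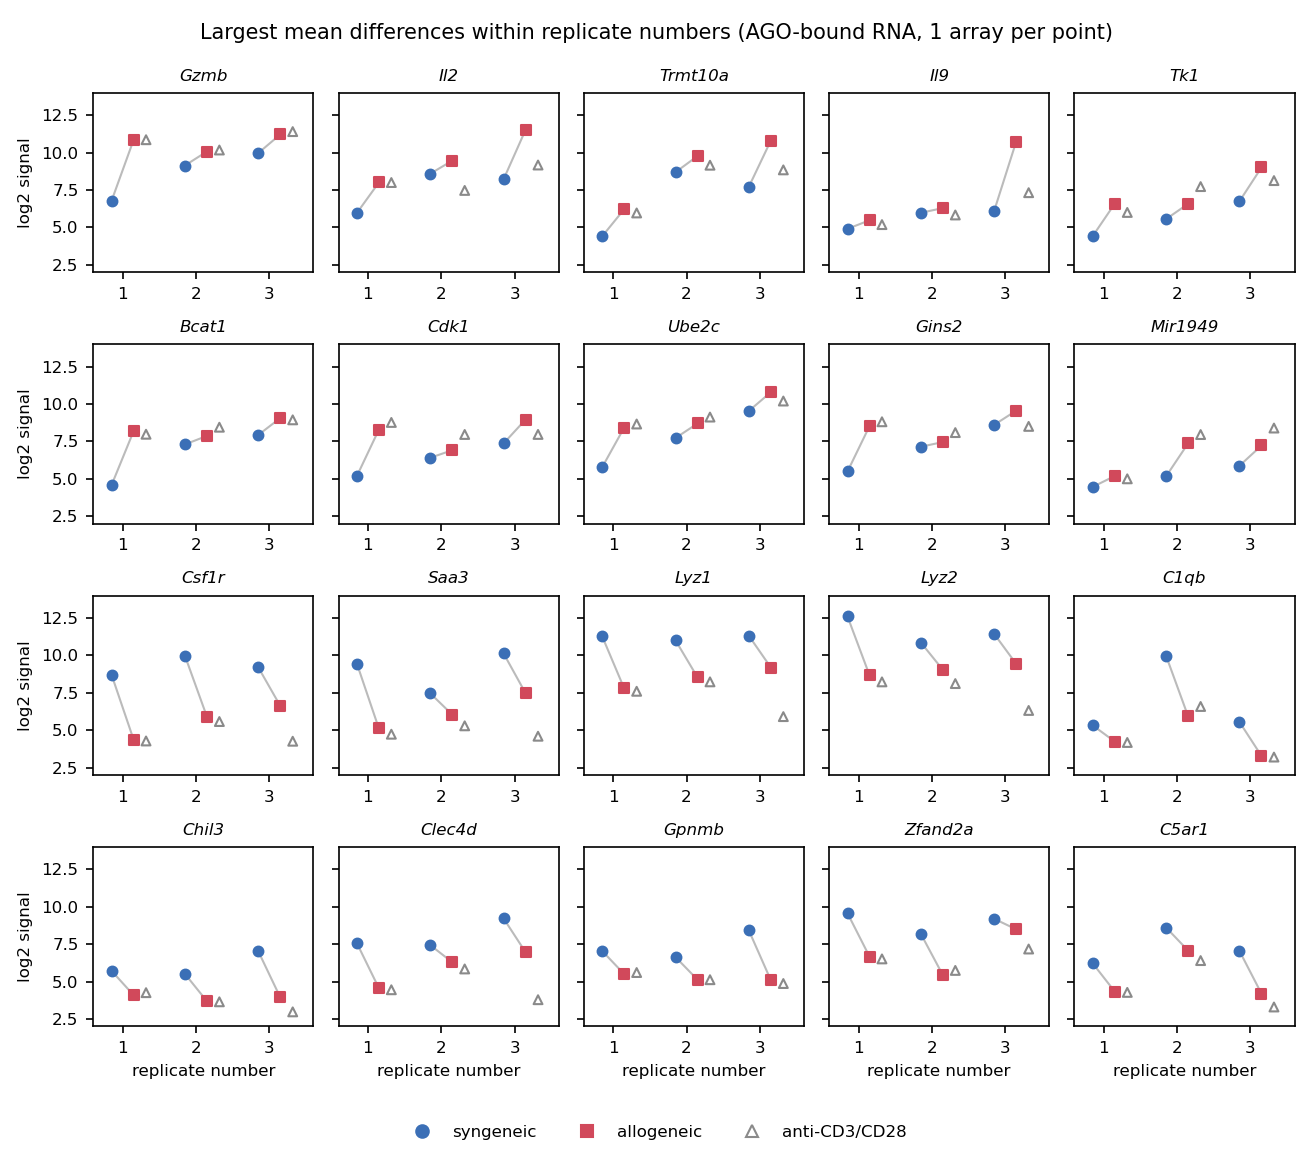
Log2 signal (y axis) by replicate number (x axis) for the 10 genes with the largest higher and the 10 with the largest lower mean differences. They were taken among genes with a common name, the same sign and a difference of at least 0.25 in each number. Circles are syngeneic, squares allogeneic and open triangles anti-CD3/CD28 arrays, 1 array per point, and lines join the pair of a number. Gzmb in number 1 goes from 6.78 to 10.86, and Csf1r in the same number from 8.71 to 4.37.

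Among genes with a common name, the 10 with the largest lower values were mostly genes of macrophages and other phagocytes. Csf1r, which encodes the receptor through which macrophage colony-stimulating factor keeps macrophages alive, stood at 8.71, 9.99 and 9.21 in syngeneic and 4.37, 5.91 and 6.63 in allogeneic culture. The groups were well apart: every allogeneic value lay below every syngeneic one by more than 2. The mean difference of the 3 pairs was −3.67 ± 0.47 (SE of the limma fit), a 12.7-fold difference in signal, and −3.33 over numbers 2 and 3. Its 2 other probe sets were dimmer, with mean differences of 0.04 and −0.49, and 2 of the 6 Csf1r values did not exceed the median gene of their array. Lyz2, the lysozyme of macrophages and neutrophils, stood at 12.61, 10.87 and 11.44 against 8.68, 9.04 and 9.44, without overlap. Lyz1, a lysozyme gene of close sequence, stood at 11.28, 11.01 and 11.32 against 7.79, 8.54 and 9.20. Its 2 brighter probe sets are of a kind that can bind RNA of related genes, and its dimmest had a mean difference of 0.10, so the split between Lyz1 and Lyz2 is uncertain.

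Several of the others are known from inflamed or resident macrophages. The acute-phase gene Saa3 stood at 9.46, 7.47 and 10.14 in syngeneic and 5.11, 6.04 and 7.48 in allogeneic culture, a mean difference of −2.81 ± 0.77. C1qb, a chain of the complement component C1q, had its highest value, 9.97, on syngeneic replicate 2 and stood at 5.92 on allogeneic replicate 2. It was lower in each number, by −1.08, −4.04 and −2.27, but 4 of the 6 values did not exceed the median gene of their array. Chil3, a chitinase-like lectin of macrophages, had a mean difference of −2.18 ± 0.50 and did not exceed the median gene of its array on 4 of 6 arrays. Clec4d, a C-type lectin receptor for microbial sugars, Gpnmb, a glycoprotein of macrophages, and C5ar1, the receptor for complement fragment C5a, had mean differences of −2.14, −2.13 and −2.09. Only 1 of the 2 probe sets of C5ar1 shared that sign. Zfand2a, which encodes a zinc finger protein induced by heat and arsenite and is the exception among these genes, stood at 9.57, 8.19 and 9.20 against 6.67, 5.43 and 8.49. All 4 of its probe sets shared the sign.

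All 19 measured genes of the macrophage and monocyte list had a mean difference below 0. Within every number, 10 of them were lower (52.6%, against 7.96% of all genes) and 0 higher, and within numbers 2 and 3 alone 13 were lower (68.4%, against 15.5%). Their median difference was −0.34, −0.42 and −1.0 in the 3 numbers, where the median of all genes was 0.00 in each. The mean signal of the list was 6.33 to 7.32 on the syngeneic and 5.29 to 6.15 on the allogeneic arrays, without overlap. In 5 of the 19 genes all allogeneic values lay below all syngeneic ones (0.451% of all genes). Mpeg1, the pore-forming perforin-2 of phagocytes, stood at 6.60, 7.99 and 9.59 against 4.49, 6.94 and 7.58. Ctss, a protease that prepares antigen for class II MHC, differed by −0.54, −0.40 and −0.52. Mertk, Msr1 and C1qa, named here after their values were seen, had mean differences between −0.23 and −0.12. The cells in these preparations were labelled T lymphocytes, and in bulk RNA fewer macrophages and less of these RNAs per cell cannot be told apart.

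Among 19 measured dendritic cell genes, 14 had a mean below 0, 3 above, and the median difference was 0.00, −0.47 and 0.00. Within every number 2 were lower (10.5%, against 7.96% of all genes) and 0 higher. The list's mean signal was 7.01 to 8.41 on the syngeneic and 7.13 to 8.37 on the allogeneic arrays. Ccl17, a chemokine of mature dendritic cells named here after its values were seen, stood at 9.80, 10.93 and 11.87 in syngeneic and 10.01, 9.83 and 12.16 in allogeneic culture. Its group ranges overlapped almost wholly, with differences of 0.21, −1.10 and 0.30. On the anti-CD3/CD28 arrays Ccl17 stood at 9.80, 7.53 and 5.86. Ly75, an endocytic receptor of dendritic cells, differed by −0.28, −0.30 and −0.74, and Clec10a stayed within the dimmer genes of all 6 arrays. Zbtb46, a transcription factor of conventional dendritic cells, differed by −0.09, −1.21 and 0.18, and its mean turned from −0.37 to 0.04 without number 2. Ccr7, the receptor that guides naive T cells and dendritic cells to lymph nodes, differed by −0.27, −0.47 and 0.04.

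**Figure D3:**
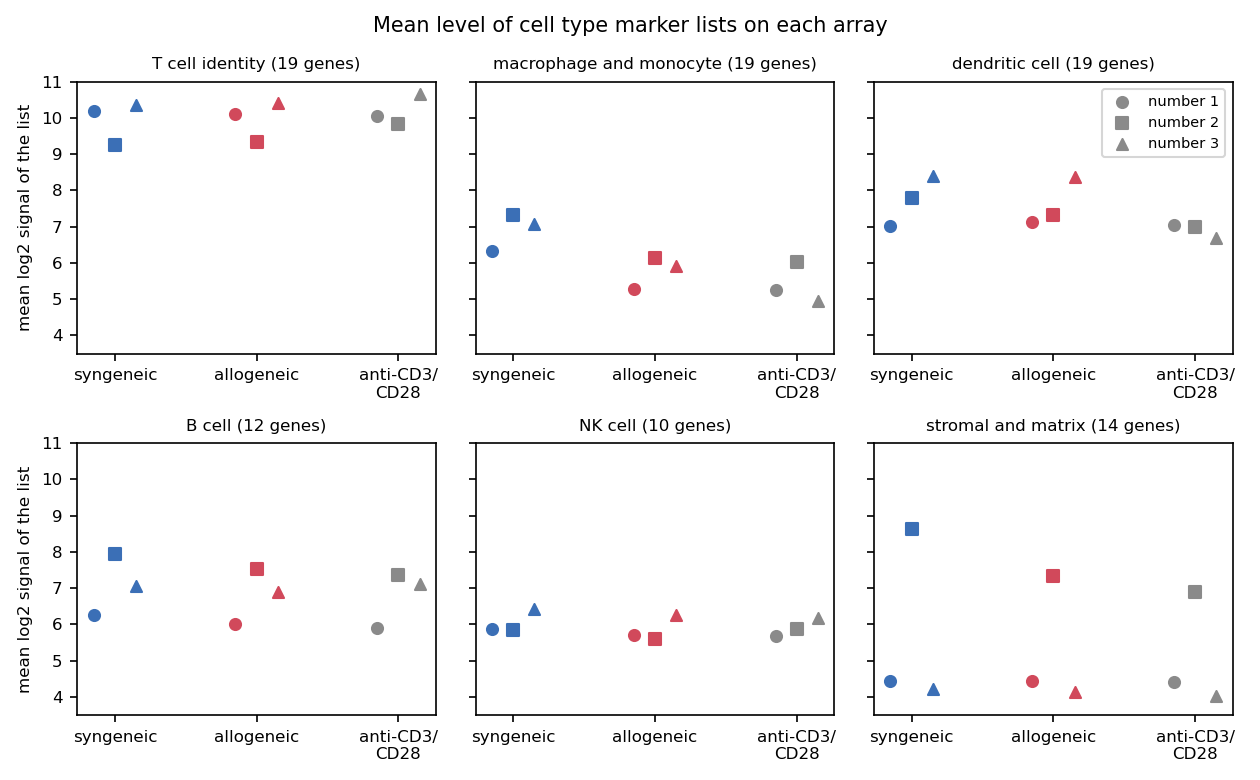
Mean log2 signal (y axis) of 6 cell type marker lists on each array, by culture (x axis), with 1 symbol per replicate number and the number of measured genes in each panel title. The macrophage and monocyte list is at 5.29 to 6.15 on allogeneic and 6.33 to 7.32 on syngeneic arrays, the T cell identity list near 10 on both, and the stromal list is high only in number 2.

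H2-Ea encodes the class II E alpha chain, which C57BL/6 mice do not express because of a deletion at its promoter and BALB/c mice do. Its brightest probe set stood at 4.49, 6.64 and 4.00 in syngeneic and 4.55, 7.16 and 9.57 in allogeneic culture. Only allogeneic replicate 3 was clearly high. The second probe set was at 3.93, 7.87 and 3.69 against 4.67, 5.72 and 9.88, and its dimmest probe set read 4.29 or less on all 6 arrays. On allogeneic replicate 1 the brightest probe set stood at the same 4.55 as on anti-CD3/CD28 replicate 1, and on the other antibody arrays at 6.57 and 4.10. The gene was thus far above its syngeneic partner on 1 of the 3 allogeneic arrays, and the mean difference of 2.05 ± 1.24 rests on number 3.

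Of the 10 measured class II genes, 4 were lower within every number (40%, against 7.96% of all genes) and 2 higher (20%, against 7.29%), H2-Ea being 1 of the higher. H2-Ob, a chain of a class II regulator found mainly in B cells, stood at 8.67, 8.22 and 8.33 in syngeneic and 7.73, 7.31 and 7.51 in allogeneic culture, without overlap. H2-Eb1, the class II E beta chain, differed by −0.93, −1.48 and −0.41, and H2-Aa and H2-Ab1, the chains of class II A, had mean differences of −0.68 ± 0.22 and −0.99 ± 0.33, with only 2 of the 3 probe sets of H2-Ab1 sharing the sign. For H2-Aa, H2-Ab1 and H2-Eb1 the difference was smallest in number 3, the number in which H2-Ea was high. Among 12 B cell genes 4 were lower within every number (33.3%, against 7.96% of all genes) and 1 higher (8.33%, against 7.29%). Ighm, the heavy chain of immunoglobulin M, stood at 13.76, 12.23 and 12.99 against 12.60, 11.59 and 12.76, and Cd72, a B cell co-receptor, differed by −0.21, −0.70 and −0.66. Cd79b and Cd22, both of the B cell receptor complex or its regulators, differed by −0.75, −0.44 and 0.00 and by 0.00, −1.22 and −0.38.

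Markers of further cell types moved with single numbers or single genes. Of 14 stromal and matrix genes, 13 had a mean below 0, but their median difference was −1.55 in number 2 and 0.00 in numbers 1 and 3. Col1a2, a chain of type I collagen, stood at 11.31 on syngeneic and 9.23 on allogeneic replicate 2, while the remaining 4 arrays read 4.00 to 4.37. Lum, Fn1 and Col6a1, of the extracellular matrix, differed by −3.21, −1.81 and −1.66 in number 2. Lower values confined to number 2 in any gene thus go with lower stromal signal there, and its part was not tested. Among 10 natural killer cell genes, Tyrobp, an adaptor shared by natural killer and myeloid cells, stood at 7.71, 9.64 and 10.01 against 5.10, 7.27 and 8.95. The killer receptor chain Klrd1 differed by −0.19, −0.74 and −0.99, Eomes, a transcription factor of natural killer and memory T cells, by 0.81, 0.34 and 0.31, and Ncr1, which marks natural killer cells, was dimmer than the median gene on all 6 arrays. Of 11 granulocyte genes, 2 were lower in every number (18.2%, against 7.96% of all genes). Mmp8, Mmp9, Elane and Ltf, enzymes and granule proteins of neutrophils, were no brighter than the median gene on 5, 3, 6 and 6 of the 6 arrays. Of 7 erythroid and platelet genes, 1 was higher (14.3%, against 7.29% of all genes) and 0 lower in every number. Epor, Ppbp, Klf1 and Itga2b, genes of these lineages, had mean differences of 0.62, −0.89, 0.74 and 0.21, and the first 3 were no brighter than the median gene on 4, 5 and 4 arrays.

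Genes of mitosis were higher in the allogeneic culture. Of 24 measured genes, 22 had a mean difference above 0, 12 were higher within every number (50%, against 7.29% of all genes) and 0 were lower. Within numbers 2 and 3 alone, 12 were higher (50%, against 18.7%) and 0 lower. The median difference was 1.28 in number 1, 0.16 in number 2 and 0.66 in number 3, so number 1, with the allogeneic array that resembles the antibody array, had the largest. Kif11, the motor that pushes spindle poles apart, stood at 6.71, 7.62 and 7.16 in syngeneic and 7.91, 8.17 and 8.46 in allogeneic culture, without overlap. Its mean difference was 1.02 ± 0.26, and all 3 of its probe sets shared the sign. Bub1b, a kinase-like protein of the spindle checkpoint, differed by 1.71, 0.90 and 0.43, and the mitotic kinase Plk1 by 0.33, 0.34 and 1.31. Not all members followed: Cenpe and Top2a, named here after their values were seen, differed by −1.96 and −1.04 in number 2 while higher in numbers 1 and 3. Mki67, the usual label of dividing cells and also named after its values were seen, differed by 1.36, −0.51 and 0.16.

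Promoters of mitosis genes are known to share the cell cycle genes homology region, TTTGAA, and CCAAT boxes, and those of Cdk1, Ube2c, Kif11 and Plk1, chosen after their values were seen, are shown because these genes were higher together in every number. Each sequence holds 250 bases before and 50 after the start of the gene in RefSeq (GRCm38.p6), 5′ to 3′ on the strand of the gene. Capitals mark every TTTGAA and CCAAT on either strand, so that TTCAAA and ATTGG are marked too. Cdk1 lies at chr10:69352863-69353162 on the minus strand, Ube2c at chr2:164769679-164769978, Kif11 at chr19:37376132-37376431 and Plk1 at chr7:122159185-122159484, all 3 on the plus strand.
Cdk1: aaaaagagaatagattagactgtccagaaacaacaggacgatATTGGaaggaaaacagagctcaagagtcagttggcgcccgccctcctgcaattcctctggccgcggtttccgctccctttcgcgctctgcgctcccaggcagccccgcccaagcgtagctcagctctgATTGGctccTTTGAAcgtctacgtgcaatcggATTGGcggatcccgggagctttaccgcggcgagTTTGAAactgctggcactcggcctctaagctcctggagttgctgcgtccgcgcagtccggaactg
Ube2c: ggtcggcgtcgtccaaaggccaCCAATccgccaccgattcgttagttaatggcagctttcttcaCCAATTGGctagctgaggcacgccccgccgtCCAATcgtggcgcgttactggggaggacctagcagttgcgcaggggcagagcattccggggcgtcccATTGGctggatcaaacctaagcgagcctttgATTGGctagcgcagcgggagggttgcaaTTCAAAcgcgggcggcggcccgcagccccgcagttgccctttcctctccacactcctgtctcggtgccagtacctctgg
Kif11: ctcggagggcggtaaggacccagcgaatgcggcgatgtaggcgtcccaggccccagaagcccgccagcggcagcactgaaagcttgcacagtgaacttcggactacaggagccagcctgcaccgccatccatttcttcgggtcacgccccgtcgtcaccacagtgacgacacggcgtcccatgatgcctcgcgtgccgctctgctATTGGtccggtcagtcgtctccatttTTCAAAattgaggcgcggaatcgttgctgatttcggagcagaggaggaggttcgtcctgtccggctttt
Plk1: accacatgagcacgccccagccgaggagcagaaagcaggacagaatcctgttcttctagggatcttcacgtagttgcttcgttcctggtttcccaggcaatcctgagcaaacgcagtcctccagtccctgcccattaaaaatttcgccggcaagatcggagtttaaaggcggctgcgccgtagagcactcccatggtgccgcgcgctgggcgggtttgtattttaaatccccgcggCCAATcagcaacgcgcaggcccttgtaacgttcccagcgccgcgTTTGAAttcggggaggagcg
Cdk1 held 2 TTTGAA and 3 CCAAT matches, Ube2c 1 and 6, Kif11 1 and 1, and Plk1 1 and 1, and in Ube2c a pair of CCAAT matches on opposite strands overlaps. Of 20 measured mitosis genes with a promoter in the table, 15 held TTTGAA (75%) and 17 CCAAT (85%), against 18.1% and 37.9% of the promoters of all 27025 genes. In the other lists searched, TTTGAA was held by 35.7% of macrophage and monocyte, 31.2% of cytokine and 10.7% of DNA replication and G1/S promoters. CCAAT was held by 35.7%, 25% and 60.7% of them. E2F, ETS, NFAT and AP-1 motifs were searched too and are not shown. These matches describe the letters only, and binding to them was not measured here.

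DNA replication and G1/S genes followed in numbers 1 and 3 but not in number 2. Of 34 measured genes, 32 had a mean above 0, and 9 were higher within every number (26.5%, against 7.29% of all genes) and 0 lower. Within numbers 2 and 3 alone, 10 were higher (29.4%) and 6 lower (17.6%), and the median difference was 0.86, −0.20 and 0.30 in the 3 numbers. Without number 1 the median of the list was 0.04, against 0.44 with it. Cdc45, a helicase component, stood at 5.16, 5.31 and 6.99 in syngeneic and 6.11, 5.63 and 8.11 in allogeneic culture. It was higher within each number, by 0.95, 0.31 and 1.12. E2f1, the transcription factor that opens the G1/S programme, differed by 0.53, 0.21 and 0.73, and Mcm10, which helps load DNA polymerase, by 0.87, 0.00 and 1.12.

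Of 25 ribosome biogenesis genes, 24 had a mean above 0, as had 10185 of the 18193 genes. In every number 8 were higher (32%, against 7.29% of all genes) and 0 lower, with medians of 0.47, −0.10 and 0.68. Nop58, a core protein of box C/D small nucleolar ribonucleoproteins, stood at 9.69, 10.47 and 10.42 in syngeneic and 10.73, 10.91 and 11.37 in allogeneic culture, without overlap. Its partner Nop56 differed by 0.47, 0.26 and 0.30, a mean of 0.34 ± 0.07. Gar1, of the box H/ACA particle, differed by 0.87, 0.89 and 0.46, and the assembly factor Rrs1 by 0.59, 0.38 and 0.13. These members were named for their small p, which favours even differences, so their shared direction is no separate result. The median of the list was near 0 in number 2. Among 28 cytosolic ribosomal protein genes, 7 were higher (25%) and 1 lower in every number, and sizes were small: Rpl22, Rps24, Rps14 and Rps2 had mean differences of 0.25, 0.28, 0.32 and 0.15. Of 13 small nucleolar RNA host genes, 3 were higher (23.1%) and 1 lower. Snhg3 stood at 6.40, 7.93 and 8.55 against 8.99, 8.75 and 9.23, without overlap, and Snhg1, Snhg4 and Snhg5 had means of 0.69, 0.61 and 0.37 with nearly no difference in number 3.

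Nutrient genes were mixed. Of 20 transporters and glycolytic genes, 4 were higher (20%, against 7.29% of all genes) and 1 lower (5%, against 7.96%) in every number. The medians were 0.52, −0.39 and 0.17. Slc7a5, which carries large neutral amino acids into activated T cells, stood at 6.99, 7.82 and 8.11 in syngeneic and 8.52, 8.12 and 9.63 in allogeneic culture. Its groups only just failed to overlap, at 8.11 and 8.12, and its mean difference was 1.12 ± 0.30. Tfrc, the transferrin receptor that brings in iron, differed by 1.91, 0.00 and 0.32, and the lactate transporter Slc16a1 by 1.63, −0.09 and 0.42. Both of these thus rested mostly on number 1. The glucose transporter Slc2a3 differed by 0.00, −0.40 and −1.03. Of 16 cholesterol genes, 3 were higher (18.8%, against 7.29% of all genes) and 0 lower in every number. The list as a whole was split, with 8 means above and 8 below 0 and medians of 0.18, −0.31 and 0.42. Sc5d, Fdps, Mvk and Srebf2, the first 3 enzymes of sterol synthesis and the last its regulator, had mean differences of 0.63, 0.61, 0.42 and 0.31. These 4 were named for the smallest p of the list.

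**Figure D4:**
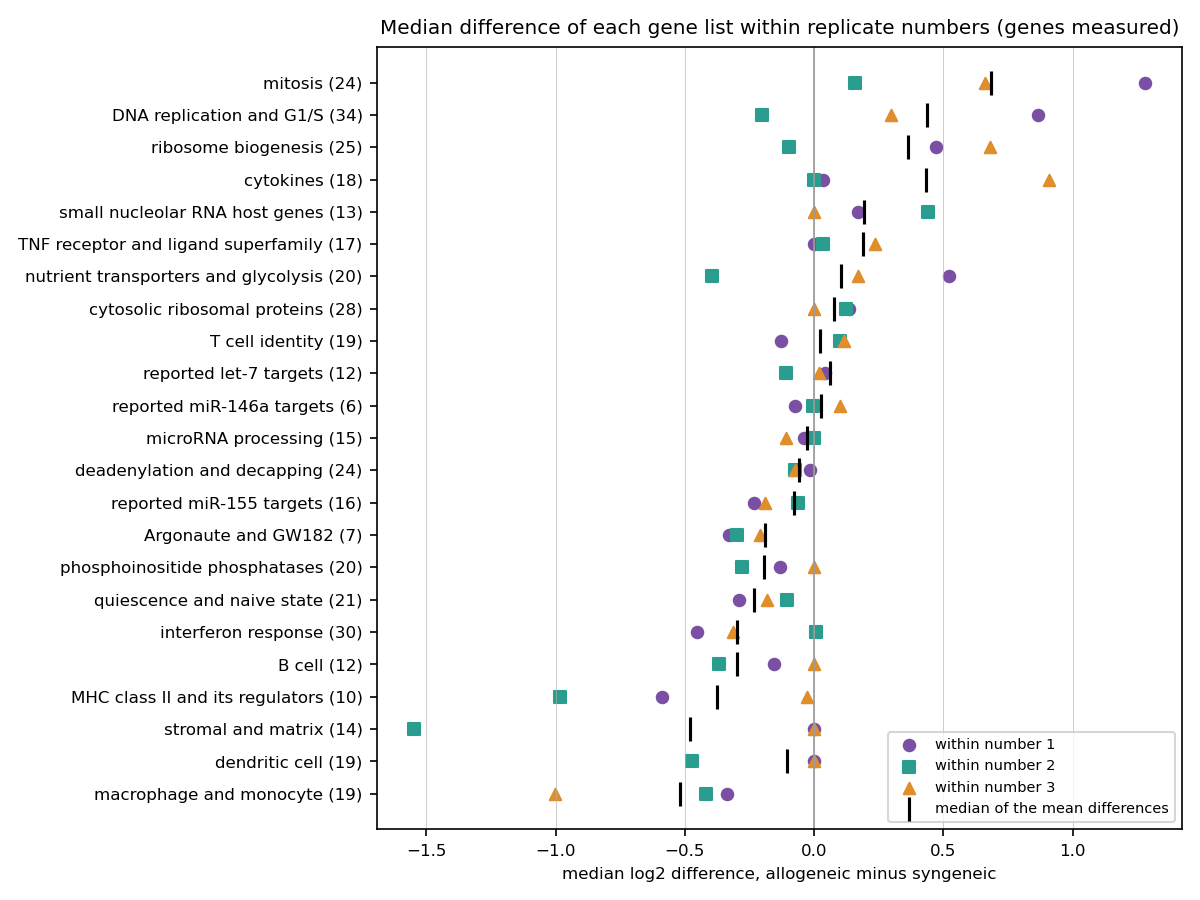
Median log2 difference (x axis, allogeneic minus syngeneic) over the measured genes of 23 gene lists (y axis, number of genes in parentheses) within each replicate number, with the median of the genes' mean differences as a black bar. Mitosis lies at 1.28, 0.16 and 0.66 and macrophage and monocyte genes at −0.34, −0.42 and −1.0, while the stromal list departs from 0.00 only in number 2.

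Cytokine genes were higher mainly in number 3. Of 18 measured genes, 5 were higher (27.8%, against 7.29% of all genes) and 2 lower (11.1%, against 7.96%) in every number, with medians of 0.03, 0.00 and 0.91. Il3, which encodes a growth factor for blood progenitors, reached 9.38 on allogeneic replicate 3, while the remaining 5 arrays read 3.82 to 4.85. Lta, the cytokine lymphotoxin alpha, stood at 6.12, 8.21 and 8.21 in syngeneic and 7.67, 8.70 and 9.79 in allogeneic culture. It was higher in each number, with a mean difference of 1.21 ± 0.39. Ifng, the interferon gamma gene and the main product of type 1 T cells, named here after its values were seen, stood at 8.07, 9.76 and 10.93 against 10.97, 9.42 and 10.85. Only number 1 had a higher allogeneic value for it, and the groups overlapped.

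The cytotoxic list did not share the difference of Gzmb. Of 15 genes, 1 was higher and 1 lower in every number (6.67% each, against 7.29% and 7.96% of all genes). The median of the mean differences was −0.05. Gzme, Gzmf and Gzmm, further granzymes, did not exceed the array's median gene on 6, 6 and 5 of the 6 arrays. Prf1, the perforin that lets granzymes into the target and is named here after its values were seen, differed by −0.38, 0.00 and 0.23.

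Il2ra, the alpha chain of the interleukin-2 receptor, stood at 9.60, 10.47 and 11.18 in syngeneic and 10.47, 11.06 and 11.71 in allogeneic culture. Each allogeneic array was higher than its syngeneic partner by 0.53 to 0.87, although the groups overlapped, and the mean difference was 0.66 ± 0.11. Il2rb, the beta chain, differed by 0.72, 0.16 and 1.25, and Pim2, a kinase gene induced through this receptor, by 0.89, 0.19 and 0.54. Stat4, which transmits interleukin-12, went the other way, at 9.98, 9.05 and 10.99 against 8.45, 8.28 and 10.74. Within the list of 19 interleukin-2 receptor, STAT and SOCS genes, 4 were higher (21.1%, against 7.29% of all genes) and 4 lower (21.1%, against 7.96%) in every number.

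**Figure D5:**
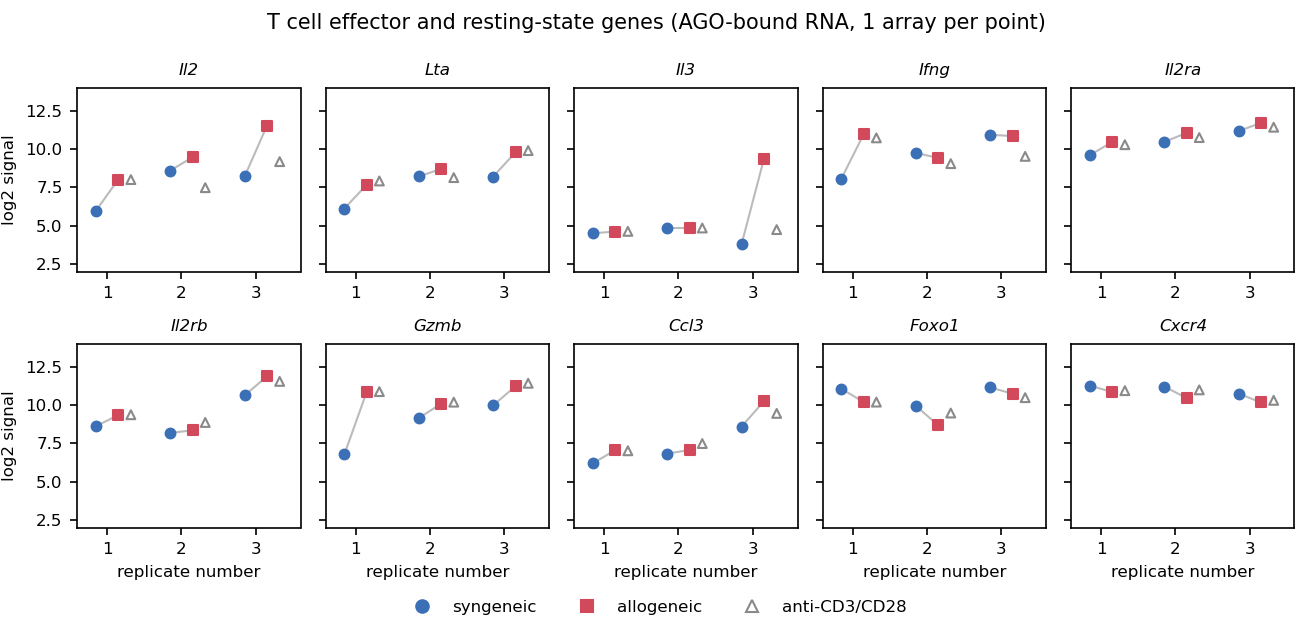
Log2 signal (y axis) by replicate number (x axis) for 8 effector genes and, last, Foxo1 and Cxcr4 of the resting state, chosen with their values known. Circles are syngeneic, squares allogeneic and open triangles anti-CD3/CD28 arrays, 1 array per point. Il3 is high only on allogeneic replicate 3, at 9.38, and Il2ra goes up by 0.53 to 0.87 within each number.

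Chemokine and chemokine receptor genes were split, with 4 of 16 higher and 4 lower in every number (25% each, against 7.29% and 7.96% of all genes). Ccl3 and Ccl4, inflammatory chemokines that draw leukocytes, stood at 6.19, 6.82 and 8.60 against 7.06, 7.07 and 10.26 for Ccl3, and differed by 0.91, 0.03 and 2.55 for Ccl4. Both were highest on allogeneic replicate 3. Ccl1 differed by 0.37, 0.22 and 0.40 but was dimmer than the median gene on all 6 arrays. Cxcr4, a homing receptor of resting T cells, stood at 11.26, 11.21 and 10.74 in syngeneic and 10.85, 10.46 and 10.17 in allogeneic culture. It was lower in each number, with a mean difference of −0.58 ± 0.11.

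Of the 19 T cell identity genes, 1 was higher (5.26%) and 2 lower (10.5%) in every number, near the 7.29% and 7.96% of all genes. Cd6, a regulator of T cell contact, differed by 0.62, 0.11 and 0.58. Cd4, Bcl11b and Lef1 had mean differences of −0.47, −0.37 and −0.26, and the mean over all probe sets of Cd4 was 0.03 instead. Of 23 genes of T cell receptor signalling, 1 was higher (4.35%) and 4 lower (17.4%) in every number. Plcg1, the phospholipase that releases calcium, stood at 11.84, 11.03 and 11.22 against 11.24, 10.69 and 10.73, a mean of −0.48 ± 0.11. Csk, the kinase that restrains Src family kinases, was higher by 0.52, 0.53 and 1.20. Cbl, a ubiquitin ligase, and the transcription factor Nfatc1 had means of −0.29 and −0.28. Among 12 genes of the CD28 family and inhibitory receptors, Lag3 was higher by 0.23, 0.19 and 0.61, and Ctla4 by 1.10 in number 1 with equal values in the other numbers. Cd274 differed by −0.26, 0.00 and −0.25, and Cd244a was among the dimmer genes of all 6 arrays. Of 12 regulatory T cell genes, 1 was higher and 1 lower in every number (8.33% each, near the shares of all genes). Entpd1 and Gpr83 had means of −0.58 and 0.38.

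Of 17 genes of the TNF receptor and ligand superfamily, 3 were higher and 3 lower in every number (17.6% each, against 7.29% and 7.96% of all genes). Tnfsf10, which encodes the death ligand TRAIL, differed by −0.67, −0.35 and −0.22. Tnfsf8, the CD30 ligand, differed by 0.00, 1.73 and 0.19, and Tnfrsf1b by −0.04, −0.79 and −0.75. Among 14 NF-kappaB genes, 3 were lower in every number (21.4%, against 7.96% of all genes) and 0 higher: the adaptor Traf1 with a mean of −0.55 ± 0.14, the inhibitor Nfkbie with −0.50 and Tnfaip3, a brake on NF-kappaB, with −0.27. Nfkbid differed by 0.72, 0.00 and 1.04. The NF-kappaB list as a whole was not lower: 8 of its means were above and 6 below 0, with medians of −0.17, −0.02 and 0.11.

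Of 12 AP-1 factors, 3 were lower (25%, against 7.96% of all genes) and 1 higher (8.33%, against 7.29%) in every number. Fosl2 stood at 8.85, 9.16 and 9.85 in syngeneic and 7.81, 7.05 and 9.13 in allogeneic culture, but only 1 of its 2 probe sets shared the sign. Maf differed by −0.52, −0.93 and −1.44, with 5 of 6 probe sets of that sign, and Fos by −0.38, −0.69 and −1.30. Fosl1 differed by 0.24, 0.20 and 1.25 and was no brighter than the median gene on 4 of 6 arrays. Of 16 activation transcription factors, 0 were higher and 2 lower in every number (12.5%, against 7.96% of all genes). Myc, which drives growth, differed by 0.82, −0.10 and 1.06, Ikzf2 by 0.00, −0.86 and −0.68, and Tox by 0.23, 0.34 and 0.00, with a mean of −0.08 over all probe sets of Tox.

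Genes of the resting state were lower. Of 21 measured genes of quiescence and the naive state, 9 were lower within every number (42.9%, against 7.96% of all genes) and 1 higher, with medians of −0.29, −0.11 and −0.18. Within numbers 2 and 3 alone, 10 were lower (47.6%, against 15.5%). Foxo1, a transcription factor that keeps naive T cells quiescent, stood at 11.06, 9.95 and 11.15 in syngeneic and 10.19, 8.68 and 10.74 in allogeneic culture. Its mean difference was −0.85 ± 0.22, with 3 of 4 probe sets of that sign. Tob1, an antiproliferative factor, differed by −0.29, −1.16 and −0.64, but its other probe set did not share the sign. Slfn2, a gene needed for T cell quiescence, and the Krüppel-like factor Klf6 had even and small differences, with means of −0.27 ± 0.10 and −0.23 ± 0.12.

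Interferon response genes were lower in numbers 1 and 3. Of 30 measured genes, 10 were lower within every number (33.3%, against 7.96% of all genes) and 0 higher, and the medians were −0.45, 0.01 and −0.31. Ifi35, an interferon-induced protein, stood at 11.75, 11.98 and 11.71 in syngeneic and 10.87, 11.67 and 11.34 in allogeneic culture. Its groups only just failed to overlap, at 11.71 and 11.67. Ifit1, an antiviral protein that binds foreign RNA, differed by −1.74, −0.32 and −0.39, Ifih1, a sensor of double-stranded RNA, by −0.50, −1.06 and −0.52, and Rtp4 by −0.49, −0.37 and −0.34. In number 2 the genes of the list were divided, 12 being lower in both numbers 2 and 3 (40%, against 15.5%). Macrophages also express interferon response genes, and the lower macrophage signal in the same arrays is given above; its part in this result was not tested.

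Of 23 genes of the unfolded protein and heat shock response, 1 was higher (4.35%) and 2 lower (8.70%) in every number, against 7.29% and 7.96% of all genes. Dnajb9, a chaperone of the endoplasmic reticulum, differed by −0.75, −0.77 and −0.51, while the mitochondrial chaperone genes Hspe1 and Hspd1 had means of 0.46 and 0.44 and the stress factor Atf4 one of 0.32. Of 18 p53 and growth arrest genes, 1 was higher (5.56%) and 2 lower (11.1%) in every number, with Sesn1, Trp53inp1, Mdm2 and Plk3 at means of −0.35, −0.25, −0.21 and 0.39. Among 13 BCL-2 and IAP survival genes, 2 were higher (15.4%) and 1 lower (7.69%). Birc3, an inhibitor of apoptosis, differed by −0.60, −0.78 and −0.35 with both probe sets of that sign, a mean of −0.57 ± 0.15, and Bid, which triggers apoptosis, by 0.53, 0.31 and 0.70. Birc2 and Bcl2l1 had means of −0.42 and 0.49.

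Of the 7 Argonaute and GW182 genes, 3 were lower in every number (42.9%, against 7.96% of all genes) and 0 higher. All 7 means were below 0, but those of Ago2 and Ago3 turned above 0 over all their probe sets. Ago1 stood at 9.98, 9.39 and 9.80 in syngeneic and 9.33, 8.63 and 9.55 in allogeneic culture, a mean of −0.55 ± 0.13. Tnrc6b, which encodes a GW182 protein, differed by −1.43, −0.46 and −0.44, with 2 of 3 probe sets of that sign. The other GW182 gene named here, Tnrc6a, differed by −0.33, −0.30 and −0.11. Ago2, the AGO protein with slicing activity, was uneven, at 11.56, 10.44 and 9.89 against 12.12, 9.35 and 10.33. Its mean of −0.03 ± 0.33 changed sign without number 2 and after quantile normalization, and Ago3 had a mean of −0.19, or 0.02 over all its probe sets.

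Of 15 microRNA processing genes, 2 were higher (13.3%, against 7.29% of all genes) and 3 lower (20%, against 7.96%) in every number. Xpo5, the exporter of microRNA precursors, differed by 0.49, 0.88 and 1.39, from syngeneic values of 5.21, 6.94 and 7.55. Drosha, the nuclear enzyme that cuts primary microRNAs, differed by −0.26, −1.05 and −0.12 on its brightest probe set, and its 2 other probe sets did not share the sign. Its helicase partner Ddx17 differed by −0.26, −0.54 and −0.27, and Tut7, which adds uridines to RNA ends, by −0.63, −0.90 and −0.32 on 1 of its 2 probe sets. Of 24 genes of deadenylation and decapping, 6 were lower (25%, against 7.96% of all genes) and 1 higher (4.17%, against 7.29%). Edc3, an enhancer of decapping, differed by −0.33, −1.76 and −0.29, Pan3, of a deadenylase, by 0.00, −0.39 and −0.82, and Dcp1b by 0.00, 0.25 and 0.55. Zfp36l2, which directs decay of AU-rich messages, had a mean of −0.33, but 0.13 over all its probe sets.

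Reported targets of 5 microRNAs of T cells were looked at because an AGO-bound RNA may be held through them. The mature sequences are shown with the seed, bases 2 to 8, in capitals, since the seed is what a target pairs with (RefSeq, GRCm38.p6).
miR-155-5p: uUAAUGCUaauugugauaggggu
miR-146a-5p: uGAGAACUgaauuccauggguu
miR-17-5p: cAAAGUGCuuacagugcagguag
miR-181a-5p: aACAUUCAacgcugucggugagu
let-7a-5p: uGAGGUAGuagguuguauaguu
The 5 seeds all differ, so each list stands for a different pairing sequence. One genomic copy lies at chr16:84714143-84714165 (plus strand) for miR-155-5p, at chr11:43374435-43374456 (minus strand) for miR-146a-5p and at chr14:115043684-115043706 (plus strand) for miR-17-5p. A copy of miR-181a-5p lies at chr1:137966468-137966490 (plus strand) and one of let-7a-5p at chr13:48538239-48538260 (minus strand). Levels of these microRNAs were not analysed here.

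Of 16 measured genes reported as targets of miR-155, 7 were lower (43.8%, against 7.96% of all genes) and 1 higher in every number, with medians of −0.23, −0.06 and −0.19. Within numbers 2 and 3 alone 7 were lower (43.8%, against 15.5%). The list holds Csf1r, described above as a macrophage gene, and Fosl2 and Maf, described above with AP-1. Bach1, a repressor of oxidative stress genes, stood at 7.83, 8.12 and 8.92 against 6.34, 6.32 and 8.55, but only 1 of its 2 probe sets shared the sign. Ifngr1, the receptor for interferon gamma, differed by −0.60, −0.20 and −0.26, a mean of −0.35 ± 0.12. Socs1, a brake on cytokine signals named here after its values were seen, had equal values in numbers 1 and 2 and differed by 1.61 in number 3. The lower members that macrophages also express were lower on the arrays with lower macrophage signal, and what part that had was not tested.

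In the other target lists at most 2 genes were lower in every number. The counts of these short lists stand beside 7.29% higher and 7.96% lower among all genes. Of 6 reported miR-146a targets, 0 were higher and 1, Fas, was lower in every number, by −0.72, −0.12 and −0.49. Traf6, Irak1 and Numb had means of 0.20, −0.06 and −0.12, and those of Irak1 and Numb were 0.03 and 0.01 over all probe sets. Of 12 reported targets of the miR-17 to miR-92 cluster, 1 was higher and 2 lower (16.7%), among them Tgfbr2, the receptor for transforming growth factor beta, by −0.13, −0.52 and −0.58. Cyld and Phlpp2 had means of −0.17 and 0.31. Of 7 reported miR-181 targets, 0 were higher and 1 lower: Dusp6, a phosphatase that switches off ERK, at 5.44, 7.65 and 7.37 against 4.92, 5.50 and 6.68. Dusp5, Cd69 and Bcl2 had means of 0.41, 0.43 and 0.37. Of 12 reported let-7 targets, 1 was higher and 2 lower, with Cdc25a, a phosphatase that activates cyclin-dependent kinases, at 0.96, −0.02 and 0.78 and Hmga2 dimmer than the median gene on all 6 arrays.

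Wapl, which releases cohesin from chromatin, stood at 8.71, 8.15 and 9.23 in syngeneic and 7.63, 8.15 and 9.23 in allogeneic culture, so its values were equal in numbers 2 and 3 and lower only in number 1. Its mean of −0.36 ± 0.25 was 0.13 when all 5 probe sets were averaged. Of 17 cohesin genes, 3 were higher (17.6%, against 7.29% of all genes) and 1 lower (5.88%, against 7.96%) in every number. Espl1, the separase that cuts cohesin in anaphase, stood at 5.38, 5.97 and 6.21 against 6.01, 6.64 and 7.63. Pttg1, its inhibitor securin, was lower instead, by −0.50, −0.15 and −0.31, a mean of −0.32 ± 0.08. Nipbl, the cohesin loader, differed by −0.92, −0.24 and 0.00, and Hdac8 by 0.16, 0.58 and 0.00.

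Synj1, which encodes synaptojanin, a phosphatase that strips coats from endocytic vesicles, differed by −1.10, −0.26 and −0.39 in the 3 numbers, from allogeneic values of 8.90, 8.56 and 9.55. It was lower in each number, with a mean difference of −0.58 ± 0.24, and 3 of its 4 probe sets had a mean below 0. Of 20 phosphoinositide phosphatases, 6 were lower (30%, against 7.96% of all genes) and 1 higher (5%, against 7.29%) in every number. The medians were −0.13, −0.28 and 0.00. The myotubularins Mtmr6 and Mtmr2 differed by −0.24, −0.84 and −0.83 and by −0.39, −0.70 and −0.22, the latter on 1 of its 2 probe sets. Inpp5a, a 5-phosphatase of inositol phosphates, differed by −0.49, −1.59 and −0.44.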

How the data were processed

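The deposited table holds log2 signals for 45101 probe sets on 9 arrays, made by the authors with the RMA method, per the submitters' processing notes. The software version is not given in the sources used here. Values were used as deposited. Control probe sets (64), those listed for several genes (932) and those with no gene listed (9160) were left out. The other 34945 were named from the platform annotation, 34741 of them through gene ID, and each of 18193 genes was represented by its brightest probe set over 9 arrays.

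The test was that of limma 3.58.1 (R 4.3.3), fitted to all 9 arrays (1 mean per group, replicate number as a fixed block, intensity trend, Benjamini-Hochberg over all genes, threshold 0.05). The arrays were paired by replicate number. With group means subtracted, the 9 same-numbered pairs correlated at 0.811 to 0.921 and the 18 pairs that differ in number and group at −0.597 to −0.165. Subtracting group means makes the second range negative by construction once the first is positive. What part normalization by number had in the first range is not known. The fit was also run on simulated data of 18193 genes with 200 changed. The noise was normal and independent, and a changed gene had the same shift on every allogeneic array. The simulated data held no equal values, which the arrays do, so the shares below can overstate what the fit recovers from the arrays. It recovered 48%, 82%, 100% and 94% of log2 changes of 1, 2, 3 and 4 and called 8 unchanged genes. On the arrays themselves, Gzmb and Csf1r had mean differences of 2.09 and −3.67, each with an adjusted p of 0.709 in the limma fit. Whether the recovered shares hold for the measured genes was not tested.

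Genes were named by a rule: the 10 with the largest higher and the 10 with the largest lower mean difference among those with one sign and at least 0.25 in each number, up to 4 members of each of 42 lists with the smallest p, and Wapl, Synj1, H2-Ea, Ago2 and Csf1r. Predicted genes, Riken clones and genes without a common name were passed over when the 10 largest in each direction were taken. The comparison, the lists and the rule were chosen with earlier results of these data known. Of 715 list genes, 649 were measured. Alternatives are given in the closing section.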

Additional observations from a re-analysis of the deposited data

How the results depend on the processing

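Of the processing alternatives, limma called 0 genes in each except the random block, which called 1. The smallest adjusted p of limma varied, from 0.709 in the main fit to 0.0569 with arrays centred on their medians, just above the threshold. Without allogeneic replicate 3 it was 0.203. Without the replicate block, 6 higher and 21 lower genes had an unadjusted p under 0.05, and with number as a random block 655 lower; the block removes variation shared by same-numbered arrays, and the cause of each other move below was not tested. After quantile normalization 3483 genes were higher in every number, 234 had all allogeneic values above and 205 all below; with arrays centred on their medians 2732 were lower in every number. List medians moved after quantile normalization to −0.0487 (granulocyte), −0.1377 (quiescence and naive state), 0.0204 (BCL-2 and IAP survival), 0.0307 (deadenylation and decapping). The mean turned sign after quantile normalization for Ago2 (0.0103). List medians moved with arrays centred to −0.0667 (granulocyte), −0.082 (NK cell), −0.0772 (cytotoxic), −0.0538 (p53 and growth arrest), −0.0319 (BCL-2 and IAP survival). List medians moved with the mean of all probe sets to −0.007 (cytotoxic), 0.051 (regulatory T cell), 0.0709 (BCL-2 and IAP survival), 0.1332 (reported miR-17 to miR-92 targets), 0.3324 (reported miR-181 targets), −0.0949 (cohesin loading and release). The mean turned sign with the mean of all probe sets for Cd4 (0.0324), Tox (−0.0761), Ago3 (0.0208), Zfp36l2 (0.1324), Numb (0.0144), Irak1 (0.0299), Wapl (0.1267), Ago2 (0.0385). Leaving out 1 array or number, unadjusted p under 0.05 was reached by 265 higher genes (without allogeneic replicate 3) to 546 and by 254 lower genes (without allogeneic replicate 1) to 453. Counted over 2 numbers in place of 3, which raises such counts by construction, 2816 to 3395 genes were higher and 2452 to 2917 lower in each, 483 to 989 and 888 to 1130 with at least 0.25, and 419 to 577 and 548 to 763 did not overlap. The medians of lists that moved by more than their SD between numbers ranged over −0.0522 to 0.0093 (granulocyte), −0.0621 to −0.0092 (NK cell), 0.0164 to 0.2705 (TNF receptor and ligand superfamily), −0.066 to 0.1259 (NF-kappaB), −0.0159 to 0.014 (cytotoxic), −0.0483 to 0.0711 (chemokines and receptors), −0.1179 to 0.0594 (IL-2 receptor, STAT and SOCS), −0.1569 to 0.0027 (regulatory T cell), 0.0259 to 0.2831 (unfolded protein and heat shock), −0.0504 to 0 (p53 and growth arrest), 0 to 0.0617 (BCL-2 and IAP survival), −0.3212 to −0.2162 (Argonaute and GW182), −0.1061 to −0.0705 (deadenylation and decapping), −0.167 to −0.1009 (reported miR-155 targets), −0.0066 to 0.1261 (reported miR-17 to miR-92 targets), −0.0047 to 0.1833 (reported let-7 targets), −0.1174 to 0.0807 (cohesin loading and release). Means that turned sign ranged over −0.6532 to 0.0443 (Zbtb46), −0.916 to 0.0872 (Mmp9), −1.0752 to 0.073 (Col1a2), −0.2537 to 1.2785 (Klf1), −0.3278 to 0.0511 (Ago3), −0.2076 to 0.049 (Irak1), −0.067 to 0.6833 (Cd69), −0.0133 to 0.2799 (Hmga2), −0.3295 to 0.4973 (Ago2). Means of Ctla4, Gzme, Gzmf and Wapl fell to 0 without 1 number. Other genes named by the rule kept their sign in these alternatives, and genes named after their values were seen were not recomputed. Wide ranges within that SD were 0.053 to 0.5641 (cytokines), −0.7718 to 0 (stromal), −0.3738 to 0 (dendritic cell), −0.4668 to −0.1576 (interferon) and 0.1997 to 0.5869 (ribosome biogenesis). So were 0.4335 to 1.0149 (mitosis), 0.0382 to 0.6573 (DNA replication and G1/S) and −0.0552 to 0.3784 (nutrient transporters and glycolysis). The same holds for −0.8374 to −0.4662 (macrophage and monocyte), −0.6722 to −0.2654 (MHC class II) and −0.1737 to 0.1402 (activation transcription factors). With 3 pairs and a median SE of 0.156, depth is not given by the arrays, and their number limits the precision.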

Other observations

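Further gene groups were chosen after the values were seen, so their counts are descriptions with no test. In the main limma fit the adjusted p was 0.709 or more for every gene. Of 22 measured aminoacyl-tRNA synthetases and scaffold genes, which load amino acids onto transfer RNAs, 7 were higher in allogeneic culture within every number (31.8%, against 7.29% of all genes) and 0 lower. Their median difference was 0.35, −0.04 and 0.65 in the 3 numbers. Aimp2, a scaffold of the synthetase complex, stood at 6.37, 5.45 and 7.92 in syngeneic and 7.49, 6.54 and 9.80 in allogeneic culture. It was higher by more than 1 in each number, with a mean difference of 1.36 ± 0.24 (SE of the limma fit) and overlapping groups. Iars, the isoleucine enzyme, differed by 1.79, 0.80 and 0.88. Of 26 genes of pyrimidine and purine synthesis, 6 were higher within every number (23.1%, against 7.29% of all genes) and 0 lower, with medians of 0.86, −0.44 and 0.48. Umps, which makes uridine monophosphate, differed by 1.35, 0.72 and 1.03, with all 4 probe sets of that sign.

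Of 20 measured C-type lectin, scavenger and formyl peptide receptors of phagocytes, 8 were lower within every number (40%, against 7.96% of all genes) and 0 higher, with medians of −0.13, −0.30 and −0.90. Marco, a scavenger receptor of macrophages, stood at 6.40, 8.53 and 8.45 in syngeneic and 5.01, 6.87 and 5.30 in allogeneic culture. The formyl peptide receptor Fpr2 differed by −1.51, −1.59 and −2.23, and the lectin Clec4n by −1.49, −1.34 and −2.23. These were lower in each number, on the same arrays as the macrophage list.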
